A study of Mus musculus with 9 samples.

Results

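A set of 10 genes of the contractile actin cytoskeleton was followed through sorted glioblastoma cells and astrocytes: Tagln, Tagln2, Acta2, Cnn1, Cnn2, Tpm1, Tpm2, Myl9, Flna and Actn1. They are 10 of the 49315 gene IDs in the count table and were chosen by name. Tagln was put on the list for its higher counts in mKate2+ than in mKate2- tumor cells, so its values in that comparison are a description, and the question was whether related genes followed it. SB28 is a mouse glioblastoma line of C57BL/6 origin, here carrying green fluorescent protein. It was grown for 2 days with primary neonatal astrocytes from mito::mKate2 mice on the same background, in which a CAG promoter drives a red fluorophore that is targeted to mitochondria. After co-culture the cells were sorted into astrocytes, SB28 cells without the astrocyte fluorophore (mKate2-) and SB28 cells that had gained it (mKate2+), and RNA was sequenced from 3 co-cultures, giving 3 libraries per group and 9 in all. No group was treated, the SB28 cells are 1 cell line, both SB28 groups had grown beside astrocytes, and no SB28 cells grown alone were analysed here. Total counts per library ranged from 24454561 to 39287841.

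Contractile force in non-muscle and smooth muscle cells comes from myosin II sliding along actin filaments in stress fibres. Tropomyosins coat these filaments, calponins and transgelins bind along their sides, and alpha-actinin and filamin crosslink them. Some of these genes are best known from smooth muscle and from the mural cells of brain vessels (Acta2, Tagln, Cnn1, Myl9), whereas others are made by most cells (Tagln2, Cnn2, Tpm1, Flna, Actn1). Many of the smooth muscle genes are targets of serum response factor, SRF, which binds a short sequence called the CArG box together with myocardin or its relatives.

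Because many smooth muscle genes are SRF targets, the promoters were read first. RefSeq promoter sequence for GRCm38.p6 was matched for 9 of the 10 genes, and Tagln was not among them. A CArG box was taken as 2 C, 6 bases that are each A or T, and 2 G, which covers both strands since the pattern mirrors itself. Within the 250 bases before the start, 2 of the 9 promoters held an exact box, those of Myl9 and Cnn2, against 1.47% of all 32851 promoters in the table. When 1 of the 6 middle bases could be G or C, Acta2 was added, giving 3 of 9 against 8.59% of all promoters. These starts are not those of the GENCODE annotation used for the positions given for each gene. In all 9 genes the window ran into the GENCODE gene, by 8 bases in Actn1, 16 in Cnn2, 44 in Myl9 and 217 in Acta2 up to all 250 in Flna. The promoters of Myl9 and Cnn2 are shown because these members hold an exact box and stand near opposite ends of the levels in SB28 cells. The sequence runs up to the GENCODE gene, 5′ to 3′, with exact and near boxes in capitals, and comes from chr2:156775214-156775419 for Myl9 and chr10:79988350-79988583 for Cnn2, both on the plus strand.
Myl9: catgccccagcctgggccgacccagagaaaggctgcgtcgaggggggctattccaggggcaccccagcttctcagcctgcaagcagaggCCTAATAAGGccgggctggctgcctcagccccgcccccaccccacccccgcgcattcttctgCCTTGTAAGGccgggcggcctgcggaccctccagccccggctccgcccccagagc
Cnn2: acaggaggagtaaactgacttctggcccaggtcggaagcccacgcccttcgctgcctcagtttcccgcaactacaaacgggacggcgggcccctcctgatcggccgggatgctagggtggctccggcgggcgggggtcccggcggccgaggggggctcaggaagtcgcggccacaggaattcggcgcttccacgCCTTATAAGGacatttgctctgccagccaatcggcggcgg
The exact box of Myl9, CCTAATAAGG, began 161 bases before the RefSeq start, and that of Cnn2, CCTTATAAGG, began 56 bases before it. The near box of Myl9 began 99 bases before that start. The near boxes of Acta2, CCCTATATGG and CCTTGTTTGG, began 84 and 34 bases before the RefSeq start, and both lie inside the Acta2 gene of GENCODE. A match is a description of the letters in this window, and the absence of a match says nothing about sites elsewhere.

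Levels were compared between genes as CPM per kb of exon, where CPM is the count per 1000000 counts after scaling the libraries by the trimmed mean of M-values (TMM). The exon length of a gene was that of all its annotated exons merged, which can exceed that of the transcripts made. The order between genes depends on this choice as well as on the spread between libraries. In mKate2- SB28 cells Flna was the highest, at 229 ± 5.89 CPM per kb (SD, n = 3), followed by Cnn2 at 143 ± 8.19, Tagln2 at 133 ± 0.929, Tpm1 at 127 ± 5.39 and Actn1 at 106 ± 6.30. The libraries of neighbours in this order did not overlap. Far below them lay Tpm2 at 6.41 ± 0.36 and Acta2 at 4.75 ± 1.397 CPM per kb, whose ranges overlapped. Tagln at 0.449 ± 0.165 and Myl9 at 0.383 ± 0.0417 also overlapped each other, and Cnn1 was the lowest at 0.0373 ± 0.0315 CPM per kb. In mKate2+ cells the order was the same except that Acta2, at 6.76 ± 1.94, stood above Tpm2, at 6.51 ± 1.38 CPM per kb, with overlapping libraries, and Cnn2 and Tagln2 also overlapped. SB28 cells thus held the broadly expressed members at high levels and the smooth muscle members at low ones. Astrocytes held a narrower spread, from Cnn2 at 115 ± 21.1 CPM per kb through Acta2 at 39.8 ± 15.0, Myl9 at 23.4 ± 6.80 and Tagln at 21.1 ± 8.70 down to Tpm2 at 10.8 ± 4.73 and Cnn1 at 1.71 ± 0.780. Their 5 highest genes, Cnn2, Flna, Tagln2, Actn1 and Tpm1, overlapped from each to the next.

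Tagln encodes transgelin, an actin-binding protein of the calponin family, and lies at chr9:45929619-45936058 on the minus strand of GRCm38. It measured 0.519, 1.02 and 1.13 CPM in mKate2- replicates 1 to 3, and 1.83, 3.66 and 1.35 CPM in mKate2+ replicates 1 to 3. These are 14, 36 and 34 counts against 65, 130 and 45 counts. The 3 mKate2+ libraries lay above the 3 mKate2- libraries, with mKate2+ replicate 2 well above the other two and mKate2+ replicate 3 close to mKate2- replicate 3. The log2 fold change on which Tagln was chosen was 1.34 ± 0.45 (SE). Its mean normalized count of 51.7 was just above the minimum of 50 used for calls in this comparison. Without mKate2+ replicate 2 the log2 fold change was 0.81, and the ratio of mean CPM fell from 2.56 to 1.78. Without that library or without mKate2- replicate 1 (1.08), Tagln did not meet the criterion of an unadjusted P below 0.05 in edgeR. Without mKate2+ replicate 1 the log2 fold change was 1.47, and Tagln was not called because its mean normalized count, 49.3, was below 50. The level was small beside that of the astrocytes, which held 28.5, 36.1 and 61.5 CPM, with the highest value in replicate 3. The mKate2- and mKate2+ means were 2.12% and 5.42% of the astrocyte mean. In bulk libraries, fewer cells that express a gene and less RNA of it per cell cannot be told apart. Tagln overlaps 108 bases of Pcsk7 and an antisense gene, Gm48529, on the other strand, and whether counting used strand is not given in the sources used here. Pcsk7 measured 20.9 ± 0.785 CPM in mKate2- and 19.3 ± 0.255 CPM in mKate2+ cells, and Gm48529 measured 0.211 ± 0.0867 and 0.392 ± 0.0753 CPM. Without strand, reads of Gm48529 and of Tagln cannot be told apart.

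Myl9, the smooth muscle myosin regulatory light chain at chr2:156775420-156781658, had the values most like those of Tagln over all 9 libraries. It measured 0.408, 0.426 and 0.4998 CPM in mKate2- cells and 0.843, 1.52 and 0.748 CPM in mKate2+ cells, and the groups did not overlap. The highest library was again mKate2+ replicate 2. These levels rest on 41 counts over the 3 mKate2- libraries and 109 over the 3 mKate2+ libraries, and Myl9 did not pass the filter of more than 1 CPM in at least 2 libraries. In the edgeR fit without that filter its log2 fold change was 1.22 ± 0.45 (SE), with an unadjusted P of 0.00994 and an adjusted P of 0.546. Its mean normalized count of 24.2 was below the minimum of 50, so Myl9 was not called. Astrocytes held 26.1, 19.9 and 35.6 CPM of Myl9, again with the highest value in replicate 3.

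Acta2, smooth muscle alpha-actin, lies at chr19:34241090-34255590 on the minus strand. It measured 7.61, 9.98 and 13.7 CPM in mKate2- and 11.8, 19.7 and 13.0 CPM in mKate2+ cells. The groups overlapped, since mKate2- replicate 3 lay above 2 of the 3 mKate2+ libraries, and mKate2+ replicate 2 stood above all others. The log2 fold change was 0.51 ± 0.26 (SE), with an unadjusted P of 0.0873 and an adjusted P of 0.923 in edgeR, and Acta2 was not called. In the fit without the filter, the one quoted for Myl9, the log2 fold change was 0.51 with an unadjusted P of 0.00745, and Acta2 stayed below the fold threshold of 1.5. In the filtered fit it met the criteria without mKate2- replicate 3 (log2 fold change 0.75) or without mKate2+ replicate 1 (0.64), and without mKate2+ replicate 2 its log2 fold change was 0.24. Cnn1, smooth muscle calponin, at chr9:22099216-22109630, was near the limit of detection in SB28 cells. It had 2, 7 and 1 counts in the mKate2- libraries and 7, 2 and 1 counts in the mKate2+ libraries, 10 counts in each group, and no difference was detectable at this depth.

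The remaining members differed little between mKate2+ and mKate2- cells. Tagln2, the paralog of Tagln that most cells make, measured 274, 277 and 278 CPM in mKate2- and 307, 326 and 299 CPM in mKate2+ cells. Its groups did not overlap, but the log2 fold change was 0.17 ± 0.08 (SE), below the fold threshold of 1.5, with an unadjusted P of 0.0673 in edgeR. The other calponin, Cnn2, had a log2 fold change of 0.12 ± 0.09. The tropomyosins Tpm1 and Tpm2 were at 0.03 ± 0.08 and 0.02 ± 0.16, and the crosslinkers Flna and Actn1 at -0.0032 ± 0.0881 and 0.02 ± 0.09. Each of these 5 genes had overlapping groups. Relative to its level, Tpm2 spread most of these 5 genes, from 15.4 CPM in mKate2+ replicate 3 to 23.3 CPM in mKate2+ replicate 2, around 17.9, 19.8 and 18.2 CPM in the mKate2- libraries.

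**Figure D1:**
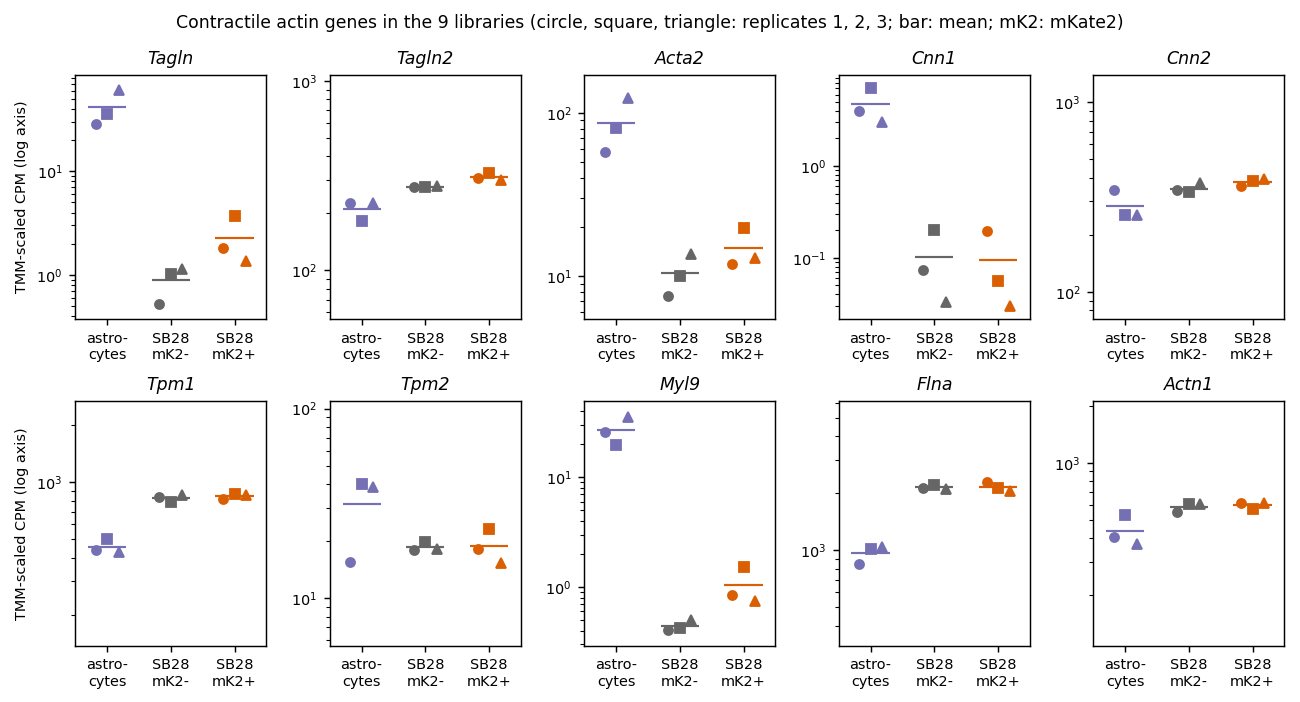
TMM-scaled CPM on log axes for the 10 genes in 3 astrocyte, 3 mKate2- SB28 and 3 mKate2+ SB28 libraries; symbols mark replicates 1, 2 and 3 and bars mark group means. Tagln, Acta2, Cnn1 and Myl9 sat far lower in SB28 cells than in astrocytes, and in mKate2+ cells replicate 2 (square) was the highest library for Tagln, Acta2 and Myl9.

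Of the 10 members, 8 passed the filter in mKate2+ against mKate2- cells, and Cnn1 and Myl9 did not. A gene was called at a fold change above 1.5, an unadjusted P below 0.05 and a mean normalized count above 50. None of the 7 tested members other than Tagln was called in either direction by edgeR, none had an unadjusted P below 0.05, and DESeq2 called none. Among all 11854 genes tested, 0.194% were called higher and 0.169% lower, 241 genes had an unadjusted P below 0.05, and no gene had an adjusted P below 0.05, the smallest being 0.923. The median log2 fold change of those 7 members was 0.03, against 0.00 over all genes tested. Of the 10 members, 3, Tagln, Tagln2 and Myl9, had all mKate2+ libraries above all mKate2- libraries, and no member had the reverse. Over the genes tested, which do not include Myl9, 4.63% showed that separation upwards and 4.56% downwards. With CPM by library total in place of TMM these shares were 2.16% and 6.67%, with the same 3 members. Tagln was chosen on this contrast. At such shares of all genes, 0 calls among the 7 other tested members and 0 of 10 members separated downwards are no result about them.

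**Figure D2:**
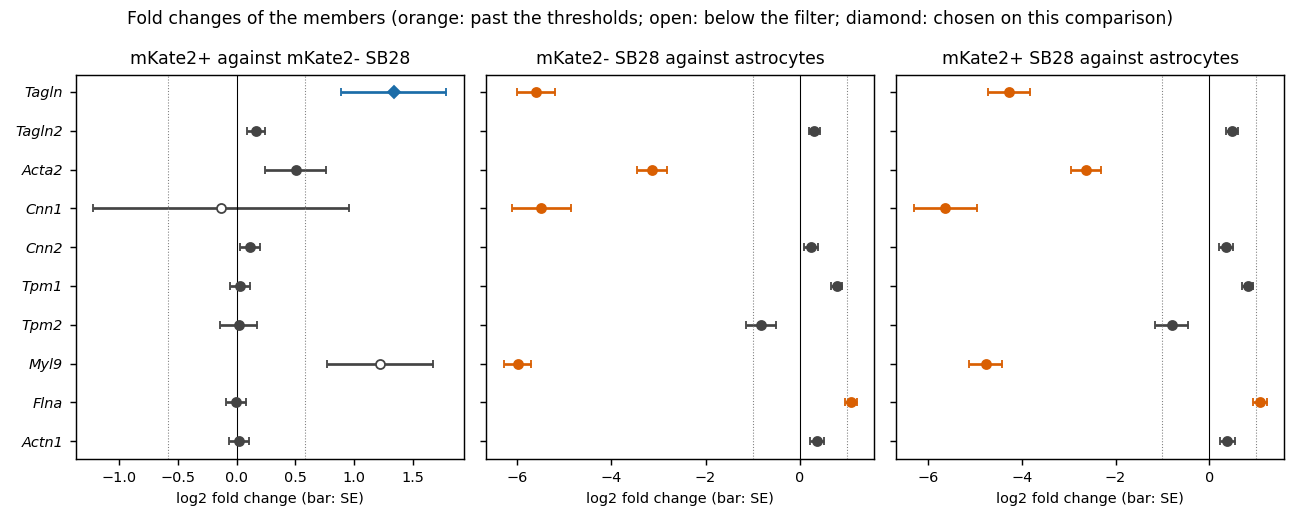
Log2 fold change (horizontal axis, bars are SE) of the 10 genes in the 3 comparisons, with orange points past the thresholds, open points for genes below the filter and a diamond for Tagln in the comparison it was chosen on. Tagln and Myl9 lay near 1.3 and 1.2 between the SB28 groups, while Tagln, Acta2, Cnn1 and Myl9 lay below -2.5 against astrocytes in both SB28 groups.

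Against astrocytes, Tagln, Acta2, Cnn1 and Myl9 were lower in SB28 cells and Flna was higher. In mKate2- SB28 cells 4 of the 10 members were called lower and 1 higher, with calls made at adjusted P values under 0.05 and log2 fold changes beyond 1 in size. Of all 13356 genes tested, 22.4% were called lower and 11.5% higher. Cnn1 and Myl9 passed the filter only through the astrocyte libraries, where they are high, so the filter set their direction and their calls are a description. Of all genes that entered only in that way, 90.9% were called lower and 0 higher. The other 8 members passed in both groups, and of these 2 (Tagln and Acta2) were called lower and 1 higher, beside 12.9% and 12.1% of the 11322 genes that passed in both. Acta2 was 8.79-fold lower (log2 fold change -3.14 ± 0.33 SE, adjusted P 0.000130 in edgeR). Tagln was 48.8-fold lower (-5.61 ± 0.40), also a description, since the mKate2- libraries are part of the contrast it was chosen on. For description only, Myl9 was 63.7-fold lower (-5.99 ± 0.29) and Cnn1 44.8-fold lower (-5.49 ± 0.62). The Cnn1 value rests on 2, 7 and 1 counts in the mKate2- libraries. The lowest astrocyte library exceeded the highest SB28 library for each of these 4 genes. The share of all genes with such a gap was not counted, so this too is a description only. Filamin A, which crosslinks actin into networks, was the gene called higher, at 2125, 2217 and 2117 CPM in mKate2- cells against 844, 1017 and 1039 CPM in astrocytes. The log2 fold change of Flna was 1.08 ± 0.13 (adjusted P 0.000227 in edgeR), close to the threshold, and 0.99 without astrocyte replicate 1.

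The other 5 members were not called in mKate2- cells against astrocytes. Tpm1 reached an adjusted P of 0.000646 in edgeR, but its log2 fold change of 0.78 ± 0.11 was below 1. Tagln2 had a log2 fold change of 0.31 ± 0.12, Cnn2 of 0.23 ± 0.15 and Actn1 of 0.36 ± 0.15. Tpm2 was at -0.82 ± 0.32, with 1 astrocyte library apart from the rest. Astrocyte replicate 1 held 15.5 CPM of Tpm2 and the other two 40.1 and 38.5 CPM, and without replicate 1 Tpm2 was called lower, at -1.16.

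The mKate2+ cells were compared with the same 3 astrocyte libraries, so the values are given side by side only. Again 4 members were called lower and 1 higher, where 22.8% of 13342 genes tested were called lower and 12.2% higher. Cnn1 and Myl9 again passed the filter only through the astrocytes, and of the 8 members that passed in both groups 2 were called lower and 1 higher, beside 13.1% each way of all such genes. The log2 fold change of Myl9 was -4.77 ± 0.36 (SE) in mKate2+ cells and -5.99 in mKate2- cells, that of Tagln -4.27 ± 0.46 and -5.61, and that of Acta2 -2.63 ± 0.32 and -3.14. Both Tagln values use SB28 libraries on which Tagln was chosen. Cnn1 was at -5.63 ± 0.68 and -5.49, and Flna at 1.09 ± 0.14 and 1.08, falling to 0.99 in mKate2+ cells without astrocyte replicate 1 and 0.99 with upper-quartile scaling. Tagln2, Cnn2, Tpm1 and Actn1 were at 0.49, 0.36, 0.82 and 0.39 in mKate2+ cells and Tpm2 at -0.80, and none of these was called. Without astrocyte replicate 1, Tpm2 was called lower here too, at -1.14. Mean levels of Myl9 were 1.64% of the astrocyte mean in mKate2- and 3.82% in mKate2+ cells, and those of Acta2 11.9% and 17.0%.

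Another 6 lists of related genes, 119 genes besides the members, were read for the same contrasts: paralogs of the members, other smooth muscle contractile genes, myosin II heavy chains and their regulators, SRF with its cofactors and targets, focal adhesion and stress fibre linkers, and genes of actin filament assembly and turnover. In mKate2+ against mKate2- cells 107 of the 119 genes passed the filter, 1 was called higher and none lower, beside the 0.194% and 0.169% of all genes. At these shares, 0 or 1 call in a list of this size is no result about its genes. Of the 107 genes, 52 had a positive and 55 a negative log2 fold change, the median was -0.01 against 0.00 for all genes tested, and 4 had an unadjusted P below 0.05 in edgeR, beside 241 of all 11854 genes. The called gene was Myl6b, a myosin essential light chain, at 5.01, 5.66 and 5.997 CPM in mKate2- and 6.49, 12.5 and 7.78 CPM in mKate2+ cells. The log2 fold change of Myl6b was 0.68 ± 0.25 (SE; unadjusted P 0.0251, adjusted P 0.923 in edgeR), and mKate2+ replicate 2 was again the highest. Without mKate2+ replicate 2 the log2 fold change of Myl6b was 0.35. No gene of the lists was called without mKate2+ replicate 2, mKate2- replicate 1 or mKate2- replicate 2, and 3 were called without mKate2+ replicate 1 or mKate2+ replicate 3. Over all 11796 genes tested without mKate2+ replicate 1, 310 were called higher and 70 lower. Without mKate2+ replicate 3 these counts were 232 and 36 of 11807. Beside these, 3 calls are no result about the lists. The list medians of the other smooth muscle genes (10 tested), the myosin II genes (15) and the SRF genes (22) were -0.12, -0.15 and -0.12. In some of these genes mKate2+ replicate 2 stood apart. Myh9, picked after its values were seen, was at 988, 575 and 915 CPM in mKate2+ replicates 1 to 3. It was at 973, 919 and 1001 CPM in mKate2- cells. Other genes, such as Srf, had no such gap. The focal adhesion list (23 tested) had a median of -0.06 and the assembly list (30) one of 0.04.

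The values of single genes in these lists follow for the same contrast. Srf had a log2 fold change of 0.04 ± 0.10 (SE), and its cofactors Mrtfa and Mrtfb, which release from actin monomers to act with SRF, of -0.12 and -0.14. Myocd, the myocardin gene, had no count in any of the 6 SB28 libraries, which allows up to 0.0148 CPM over their summed total, and 0, 4 and 0 counts in the astrocyte libraries. Myh11, the smooth muscle myosin heavy chain, was at 0.142 CPM or below in every SB28 library. The caldesmon gene Cald1 was at -0.10 and the myosin light chain kinase gene Mylk at -0.14. A few muscle genes were nearly absent from 1 library and were picked after their values were seen. Actc1, cardiac actin, had 2 counts in mKate2+ replicate 2 (0.0564 CPM) and between 3.03 and 5.54 CPM in the other 5 SB28 libraries. Des, the muscle intermediate filament gene desmin, had 0.0846 CPM there and 1.13 to 3.49 CPM elsewhere in SB28 cells, and skeletal actin, Acta1, had 0.225 CPM against 0.787 to 2.23 CPM.

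**Figure D3:**
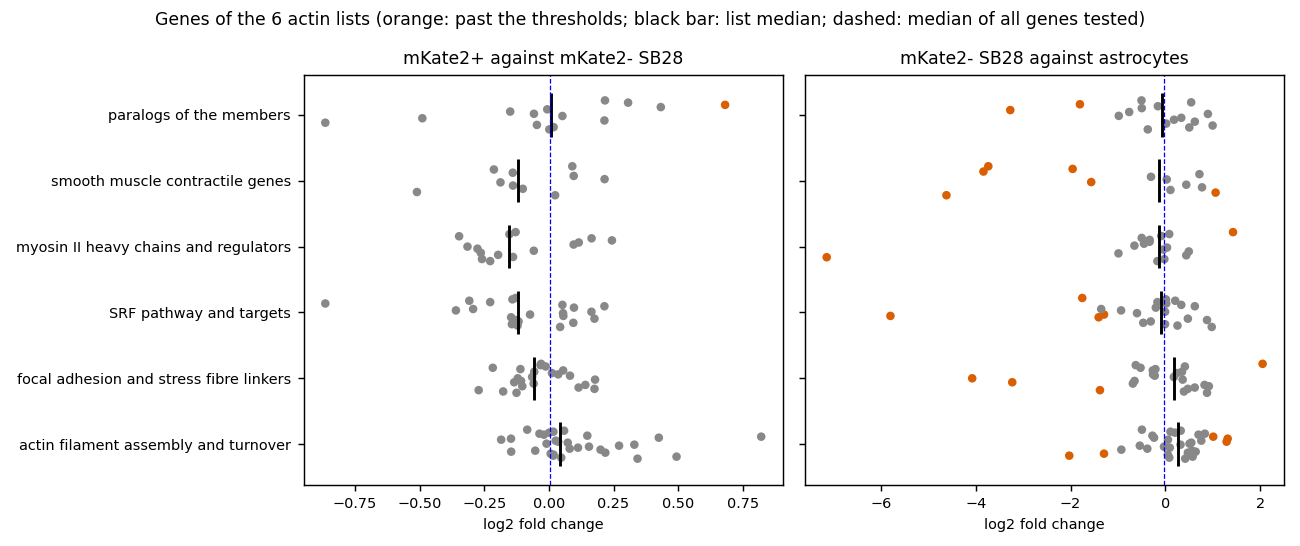
Log2 fold change (horizontal axis) of each tested gene of the 6 lists, with orange points past the thresholds, black bars at list medians and a dashed line at the median of all genes tested. Between the SB28 groups 1 gene, Myl6b, was called. In mKate2- cells against astrocytes 17 of 112 genes (15.2%) were called lower and 6 (5.36%) higher, beside 22.4% and 11.5% of all genes tested. In mKate2+ cells against astrocytes these counts were 21 and 8.

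In mKate2- SB28 cells against astrocytes, 112 genes of the lists were tested, of which 17 (15.2%) were called lower and 6 (5.36%) higher, beside the 22.4% and 11.5% of all genes. Of the 17 lower genes, 4 (Actn3, Lmod1, Myh14 and Synm) passed the filter only through the astrocytes, so the filter set their direction and their values are a description. Among genes that passed in both groups, 13 of 107 list genes (12.1%) were called lower and 6 (5.61%) higher, beside 12.9% and 12.1% of all such genes. The counts that follow are of genes that passed in both groups. Of the other smooth muscle genes, 3 of 10 were called lower. Fhl1, a LIM-domain protein of muscle, fell from 281 ± 54.7 CPM in astrocytes to 22.2 ± 1.70 CPM (SD, n = 3; log2 fold change -3.74, adjusted P 6.79e-06 in edgeR). Smoothelin, Smtn, was the 1 gene of this list called higher, at 1.06. Cald1 and Mylk were at 0.77 and 0.44 and were not called. Of all 12 tested genes of the list, 6 had log2 fold changes above 0. These 12 include Lmod1 and Synm, which passed only through the astrocytes and lay below 0. Of the 15 myosin II genes none was called lower and 1 higher, the cytokinesis kinase gene Cit at 1.43. Of the 22 SRF genes 4 were called lower, among them the secreted matrix protein gene Ccn1 (-1.41) and Tuft1 (-1.75), and none higher. Their log2 fold changes were above 0 in 9 and below 0 in 13. Srf itself was at 0.976, just under the threshold, and was called higher in mKate2+ cells, at 1.03. Of 14 paralogs 1 was called lower, Myl6b (-1.80). Of the genes that passed only through the astrocytes, Synm, the intermediate filament gene synemin, was at 8.42 ± 1.61 CPM in astrocytes and 0.614 ± 0.126 CPM in mKate2- cells. Myh14, a non-muscle myosin heavy chain, was at 38.6 ± 13.4 and 0.285 ± 0.129 CPM, and the alpha-actinin gene Actn3 at 2.16 ± 0.691 and 0.232 ± 0.175 CPM.

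Of the 23 focal adhesion genes, 3 were called lower, with Pdlim4 at -4.08 and the tensin gene Tns1 at -3.23, and 1 was called higher, the LIM protein gene Tes, at 783 ± 30.04 CPM in mKate2- cells against 180 ± 40.4 CPM in astrocytes (log2 fold change 2.05). Of the 30 assembly genes, 3 were called higher, with the Arp2/3 subunit gene Actr3 at 1.29 and the formin gene Diaph3 at 1.31. The assembly genes called lower were Pfn2, a profilin, at -2.03 and the filament-severing gelsolin gene Gsn at -1.30. In mKate2+ cells against the same astrocytes, 21 of 112 list genes (18.75%) were called lower and 8 (7.14%) higher, beside the 22.8% and 12.2% of all genes. Of the 21, the same 4 genes passed only through the astrocytes. Among genes that passed in both groups, 17 of 106 list genes (16%) were called lower and 8 (7.55%) higher, beside 13.1% each way of all such genes.

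The genes whose profile was most like that of Tagln were ranked by the root mean square difference of log2 CPM after centring each gene, a description over libraries that include those Tagln was chosen on. Over all 9 libraries and 13423 other genes, the closest was Myl9, at a difference of 0.36 on the log2 scale. Next came Crispld2, Tcp11l1, Vsir, an immune checkpoint gene, and Gsta4, a glutathione transferase gene, at 0.43 to 0.44. These 4 genes were also low in SB28 cells, Gsta4 for example at 56.7 ± 6.72 CPM in astrocytes, 1.34 ± 0.141 in mKate2- and 2.18 ± 0.356 CPM in mKate2+ cells. Among the other members Cnn1 ranked 597th, at 0.98, and Acta2 723rd, at 1.04, and the remaining 6 ranked from 3504th (Tpm2) to 11889th (Flna). Over the 6 SB28 libraries and 11885 other genes, the closest were Rpl6l, Mthfs, Mrpl53, Gm8430 and 2010001A14Rik, at 0.36 to 0.39. Of the SB28 libraries each was highest in mKate2+ replicate 2, at 3.30, 2.14, 2.31, 3.72 and 3.89 CPM, and none is an actin gene. Rpl6l and Gm8430 are annotated as processed pseudogenes, so their counts may be shared with near-identical genes. Acta2 ranked 22nd, at 0.46, Tagln2 2240th and Flna 5561st, while Myl9 and Cnn1 were too low to be ranked.

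The labelled cell types were checked against marker genes. Of 10 astrocyte markers, 8 averaged above 1 CPM in the astrocyte libraries, led by the glutamate transporter gene Slc1a3 at 167, 166 and 221 CPM, and Gjb6 had no count in any library. Gfap was at 8.54, 3.22 and 18.2 CPM, and the astrocyte libraries also held collagen Col1a2 at 989, 1043 and 786 CPM. The 12 mural cell markers summed to 215, 196 and 330 CPM in astrocytes, led by Notch3, with Higd1b at 0, Myh11 at 0.345 to 0.400 CPM and Rgs5 at 0.712, 0.0861 and 2.56 CPM. Astrocyte replicate 3 was the highest for summed astrocyte, mural and endothelial markers (1131, 330 and 187 CPM) and for Tagln, Acta2 and Myl9, whereas Cnn1 was lowest there. The endothelial markers, mostly Flt1, summed to 7.31 and 13.6 CPM in astrocyte replicates 1 and 2, so replicate 3 stood apart from both. The fibroblast markers, the largest sum in astrocytes, were lowest in replicate 3, at 1511, 1548 and 1166 CPM in replicates 1 to 3. The part of these cell types in the astrocyte values of the members was not tested.

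Between the SB28 groups the sums of these markers differed by less than the spread between libraries. The astrocyte markers summed to 90.7, 132 and 104 CPM in mKate2- and 95.3, 127 and 95.2 CPM in mKate2+ cells, mostly Sox9, and these are 14.2% and 13.8% of the astrocyte mean. Slc1a3 was at 1.11, 0.966 and 2.37 CPM in mKate2- and 0.843, 0.620 and 1.14 CPM in mKate2+ cells, or 0.802% and 0.469% of the astrocyte mean. The mural markers summed to 59.5, 75.3 and 74.8 CPM and to 69.5, 65.7 and 75.5 CPM, mostly Pdgfrb, with Notch3 at 2.57 CPM or below and Higd1b at 0 in mKate2+ cells. The 10 fibroblast markers, mostly Col1a2, summed to 929 ± 112 CPM and 850 ± 88.5 CPM, and the 8 endothelial markers, mostly Flt1, to 57.0 ± 6.01 CPM and 55.6 ± 2.07 CPM, with Tie1 and Emcn at 0. The 10 microglia markers, mostly Tmem119, summed to 81.1 ± 6.73 and 86.3 ± 11.8 CPM, with Cx3cr1 at 0 in both. Of these markers, 5 astrocyte, 6 mural, 7 fibroblast, 2 microglia and 2 endothelial genes passed the filter between the SB28 groups, and none was called. Of all genes tested, 0.194% were called higher and 0.169% lower, so no call among so few markers is no result about them. The proliferation marker Mki67 was called lower in mKate2+ cells, at 109, 51.0 and 117 CPM against 150, 137 and 160 CPM (log2 fold change -0.70 ± 0.27 SE, unadjusted P 0.0332, adjusted P 0.923 in edgeR), and was lowest in mKate2+ replicate 2. The other 7 of the 8 proliferation genes were not called.

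The library that carried most of the Tagln difference also differed from the rest by gene length. In mKate2+ replicate 2, the median difference from the mKate2- mean was 0.33 on the log2 CPM scale for the shortest 2369 of the genes tested (up to 2.44 kb of exon) and -0.20 for the longest 2368 (from 7.69 kb). The same medians were 0.01 and 0.00 in mKate2+ replicate 1, and 0.04 and -0.02 in mKate2+ replicate 3. Tagln (1.99 kb), Myl9 (1.16 kb), Acta2 (2.20 kb) and Tagln2 (2.08 kb) are all in the shortest class. The Tagln difference was 1.05, 2.03 and 0.63 in mKate2+ replicates 1, 2 and 3, and that of Myl9 was 0.84, 1.65 and 0.68 on 11 to 54 counts per library. Tagln was chosen for being high in these libraries. Acta2 was at 0.22, 0.96 and 0.36. Tagln2 was at 0.15, 0.24 and 0.115, below the median of its length class in mKate2+ replicate 2 and above it in mKate2+ replicates 1 and 3. With the length trend removed, the log2 fold change of Tagln2 fell from 0.17 to 0.07 and that of Cnn2 from 0.12 to 0.05. That of Acta2 was 0.40 and that of Tagln 1.197. Tagln still met the criteria, in the comparison on which it was chosen. Myl6b was then at 0.54, below the fold threshold, and was no longer called.

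**Figure D4:**
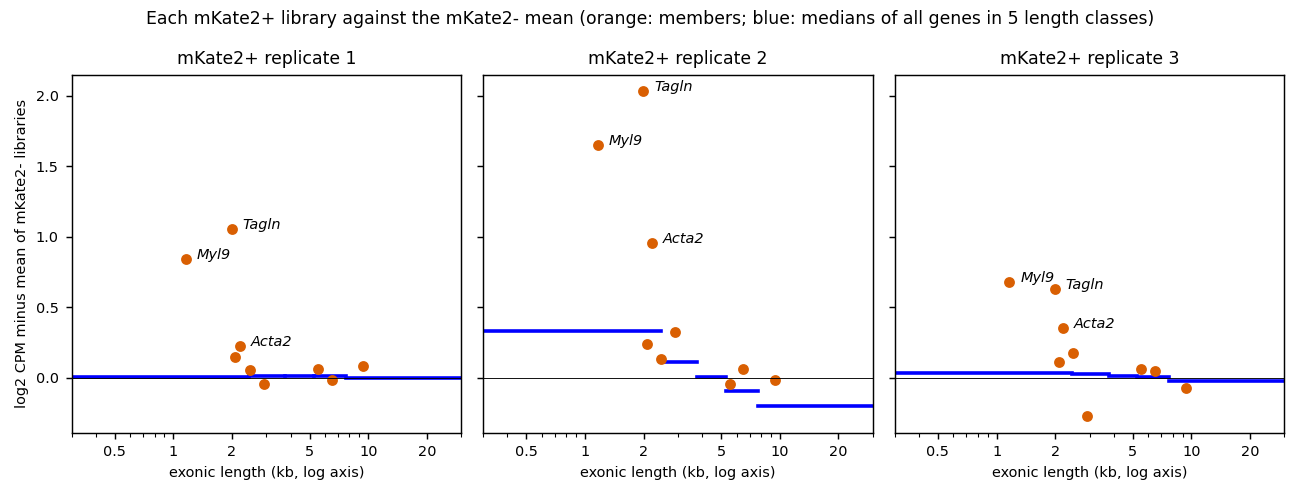
Log2 CPM of each mKate2+ library minus the mean of the 3 mKate2- libraries (vertical axis) against exonic length (log axis, kb), with members other than Cnn1 as orange points and the medians of all tested genes in 5 classes of length as blue lines. The blue lines slope most in replicate 2, from 0.33 in the shortest class to -0.20 in the longest.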

How the data were processed

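RNA-seq was analysed for 9 libraries, 3 each of astrocytes, mKate2- SB28 cells and mKate2+ SB28 cells. The deposited values are raw counts of reads per gene, which the authors made without normalization. The submitters' processing notes name Trimmomatic 0.36, STAR 2.5.2b, featureCounts and Subread 1.5.2, with GRCm38. All 9 columns of the table were used, matched to samples by name. The series' design text describes SB28 cells as GFP+ and the astrocytes as stained with CellTrace Violet and carrying mKate2, but its sort gates, as written, make the tumor cells stained and GFP- and the astrocytes unstained and mKate-. Groups therefore followed the sample titles. Names, positions and exonic lengths came from GENCODE M21, in which 259 of 49315 IDs have no name.

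Each comparison used the 6 libraries of its groups in R 4.3.3 with edgeR 4.0.16, TMM scaling, genes above 1 CPM in at least 2 libraries, the quasi-likelihood test and Benjamini-Hochberg adjustment over all genes tested. CPM values were TMM-scaled over all 9 libraries, and log2 CPM used a prior count of 2. Alternatives were DESeq2 1.42.0, upper-quartile scaling, no filter, at least 10 counts in every library, all 9 libraries in 1 fit, the replicate number as a block, removal of a gene length trend and leaving out each library. The code was tested on simulated counts. With 3 libraries against 3, an exact two-sided permutation test of a single value cannot go below 0.1, so none was used.

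The members and lists were chosen with earlier results of these data known, and no list was tested as a set. Genes were named by a rule: all 10 members, up to 2 genes per direction and list with the smallest adjusted P in mKate2- SB28 cells against astrocytes, any list gene called between the SB28 groups, the 5 genes most like Tagln over 9 and over 6 libraries, and the most abundant and absent markers. Genes such as Srf and Myocd were added to show the SRF pathway.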

Additional observations from a re-analysis of the deposited data

How the results depend on the processing

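Between the SB28 groups, the count of members other than Tagln that were called stayed at 0 under every alternative except leaving out 1 library, where it ranged from 0 to 1 (Acta2, without mKate2- replicate 3 or mKate2+ replicate 1). The count for the 6 actin lists, 1, became 2 without the filter on low counts and 0 with the gene length trend removed, with or without the replicate block, and ranged from 0 to 3 when 1 library was left out. The median log2 fold change of the members other than Tagln, 0.029, was 0.073 with at least 10 counts in every library, 0.070 with the length trend removed and 0.044 to 0.077 with 1 library left out. Against astrocytes, the count of members called higher, 1, ranged from 0 to 1 with 1 library left out, being 0 without astrocyte replicate 1 in both comparisons and 1 without any other library. It was 0 for mKate2+ cells with upper-quartile scaling, which also took the list genes called higher there from 8 to 5. The median of the members in mKate2- cells, -0.30, was -0.38 with upper-quartile scaling, -0.24 without the filter, -0.24 with the replicate block, -0.23 with the block and length trend removal, and -0.43 to -0.24 with 1 library left out. In mKate2+ cells it was -0.22, and -0.40 to -0.17 with 1 library left out. With at least 10 counts in every library, Cnn1 was not tested and these medians were 0.15 and 0.27. The count of members called lower stayed within 3 to 5 in both comparisons, against 4.

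Over all genes, 23 were called higher and 20 lower between the SB28 groups. The counts were 62 and 21 with DESeq2, 224 and 35 without the filter, 41 and 12 with all 9 libraries in the fit, 13 and 33 with the replicate block, 12 and 21 with the length trend removed, and 6 and 28 with both. Leaving out 1 library gave 5 to 310 higher and 16 to 70 lower, and without mKate2+ replicate 2 the higher count was 5. Same-numbered mKate2- and mKate2+ libraries deviated from their group means with correlations across genes of -0.03, 0.11 and 0.27, so the numbers were not taken to pair the samples, and the replicate block changed no call of a member. The block together with length removal was chosen after seeing the data. Counts of 1 to 7 per library for Cnn1 and 11 to 54 for Myl9 in SB28 cells limit what their values can show.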
